A study of Mus musculus with 16 samples.

Results

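Strong peaks of RNA polymerase II (Pol2) in activated mouse B cells were used as anchors, and the position of Myc was read around them. A 500-base bin on chromosomes 1 to 19 was taken as a Pol2 summit where it held at least 20 B4 Pol2 reads and was the highest Pol2 bin within 2 kb. This gave 6880 summits, out of 9855 bins with at least 20 Pol2 reads and 4924850 bins in all. Each summit was turned so that the side with more Pol2 reads within 5 kb was positive. Pol2 reads chose the summits and their direction, so the Pol2 profile is given below as a description, with no test. Myc and IgG reads took no part in that choice.

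All groups compared directly are splenic B cells cultured for 4 h with lipopolysaccharide (LPS, 25 µg/ml), a component of bacterial outer membranes that activates B cells (labelled B4). Chromatin immunoprecipitation followed by sequencing (ChIP-seq) gave 2 Myc libraries made with an antibody to EGFP, the tag on Myc, and 2 control libraries made with non-specific IgG. It also gave 1 Pol2 library, which set the summits. Another B4 Pol2 library, with 10058-F4, a small molecule that disrupts Myc pairing with Max, is not a replicate of it. The titles of the Pol2 library that set the summits and of a further IgG library carry the mark wt, whose meaning is not given. Whether the cells of these libraries carry tagged Myc is therefore not known. This further IgG library is called IgG wt and its values are given beside those of the other IgG libraries. The labels do not say whether libraries came from separate animals, and any p-value then measures only the spread between these libraries. The cell type label was not checked against marker genes, because no gene annotation of the build used (mm8) was available for use here.

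Myc is a transcription factor of the basic helix-loop-helix leucine zipper class. It pairs with Max, binds E-box DNA, and is found at the promoters of active genes. In resting B cells Myc is scarce, and it is induced soon after activation by LPS. Pol2 transcribes protein-coding genes and often pauses just downstream of the start site, so a tall and narrow Pol2 peak with a lower shoulder on one side is the usual picture of an active promoter. Summits were not matched to genes here, and the positive side is the side with more Pol2, not an annotated direction of transcription.

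Pol2 reads in the summit bin ranged from 20 to 917, with a median of 29. The 2 sides were tied at 65 summits, which were left in genome orientation. Of the others, 3478 had more Pol2 toward higher coordinates and 3337 toward lower coordinates. Another summit lay within 5 kb of 757 summits (11.0%), so some windows overlap. Summit density ranged from 1.87 per Mb on chromosome 3 to 5.79 per Mb on chromosome 11. Reads kept on chromosomes 1 to 19 were 2377368 for Pol2, 2141694 and 3099793 for Myc replicates 1 and 2, and 3367741 and 5119994 for IgG replicates 1 and 2. IgG wt was the shallowest, with 1278471. Reads were 24 to 30 bases long in Myc and IgG replicate 1 and 45 bases in the others, so each Myc library was set against the IgG library of the same title suffix, which also shares its read length range.

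Myc reads peaked on the Pol2 summit. In the summit bin Myc replicate 1 had 2.31 RPM (reads per 1000000 reads of the library on these chromosomes) and replicate 2 had 1.63 RPM, averaged over the 6880 summits. IgG replicates 1 and 2 had 0.636 and 0.702 RPM there. Both Myc libraries therefore lay above both of these controls. IgG wt had 1.41 RPM, above the other IgG libraries and close below Myc replicate 2. Pol2 itself had 14.0 RPM, which reflects the rule. In these bulk libraries, binding in more cells and more binding per cell cannot be told apart.

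As a ratio, Myc exceeded IgG by a log2 of 1.86 in pair 1 and 1.22 in pair 2 (mean 1.54 ± 0.45, SD, n = 2 pairs), which is a mean fold of 2.91. The exact binomial 95% intervals were 1.83 to 1.89 and 1.20 to 1.24. They cover counting error only, and the gap between the pairs was far wider. An exact two-sided permutation test over the 2 Myc and 2 IgG libraries gave p = 0.333, the smallest value that this design allows. Against IgG wt the log2 ratio was 0.71 for Myc replicate 1 and 0.21 for replicate 2, so the size of the Myc excess depended on the control library. With IgG wt added as a control the mean log2 difference was 1.18, and the exact permutation p was 0.2, again the smallest possible.

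Each library was also compared with its own level 4 to 5 kb away, which removes the scaling between libraries. The summit bin held 6.33 and 6.20 times the flank level in Myc replicates 1 and 2, or 6.27 ± 0.09 (SD, n = 2). The factor was 1.99 and 2.70 in IgG replicates 1 and 2, and 3.58 in IgG wt. On this scale the Myc libraries were alike and stood above all 3 IgG libraries. All 3 IgG libraries nevertheless rose at the Pol2 summits, and why they did was not tested.

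**Figure D1:**
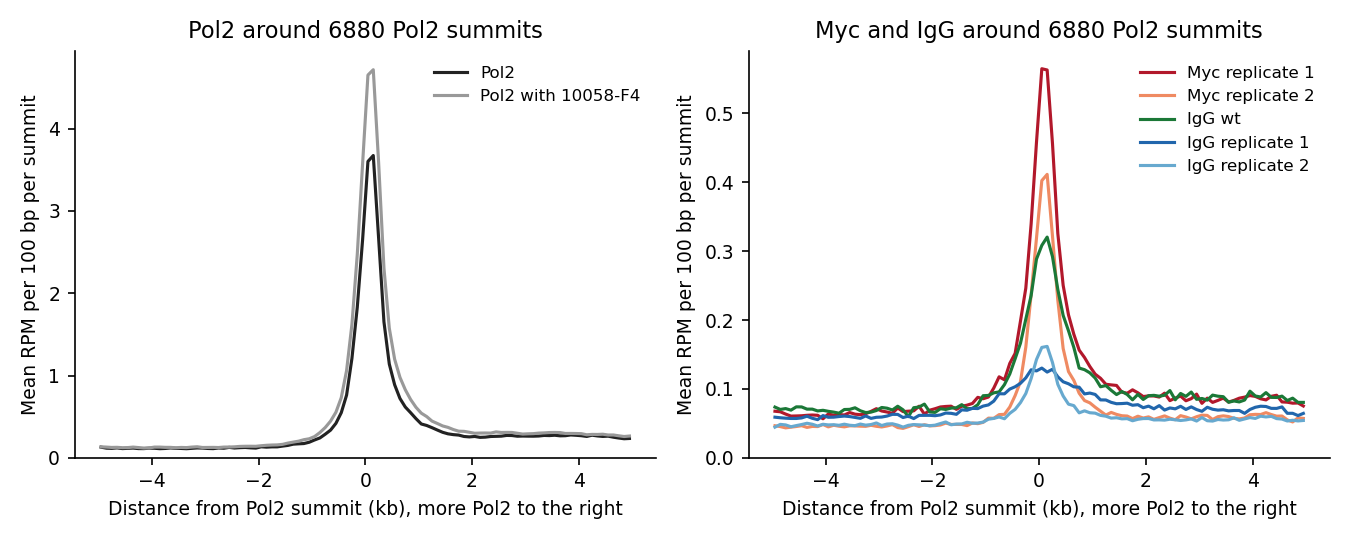
Mean RPM per 100 bases per summit (vertical axis) against distance from the Pol2 summit in kb (horizontal axis, side with more Pol2 to the right). Each line is 1 library. On the left are the Pol2 library that set the summits and the B4 Pol2 library with 10058-F4, which are not replicates. On the right are the Myc and IgG libraries. Myc replicates 1 and 2 reach 0.565 and 0.412 RPM, above IgG wt at 0.321 and IgG replicates 1 and 2 at 0.130 and 0.162.

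The Myc excess was narrow. At the step centred 150 bases to the positive side, Myc replicate 1 had 0.563 RPM per 100 bases and replicate 2 had 0.412, against 0.124 and 0.162 in IgG replicates 1 and 2 and 0.321 in IgG wt. At 1050 bases on the same side the Myc values had dropped to 0.121 and 0.0735 and the IgG values were 0.0920 and 0.0649. IgG wt had 0.116 there, above Myc replicate 2. On the negative side at 950 bases, Myc had 0.0883 and 0.0577, IgG had 0.0768 and 0.0561, and IgG wt had 0.0906. Of the net Myc excess over IgG within 5 kb, 63.2% in pair 1 and 84.2% in pair 2 lay within 500 bases of the summit. The net excess was 3.74 RPM in pair 1 and 1.52 RPM in pair 2. In pair 2 the negative side from 500 to 5000 bases gave −3.04% of it, so these are shares of a net sum.

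In log2 terms, the excess of pair 1 fell from 1.86 in the summit bin to 0.50 at 1000 bases on the positive side and 0.24 at 1000 bases on the negative side. For pair 2 it fell from 1.22 to 0.23 and 0.01. At 4500 bases pair 1 still had 0.28 on the positive side and 0.10 on the negative side, and pair 2 had 0.08 and −0.09. Pair 1 stayed above 0 at 99 of 100 steps and pair 2 at 62. Both Myc libraries exceeded all 3 IgG libraries at 5 adjacent steps, centred from −150 to 250 bases.

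limma-trend with Benjamini-Hochberg adjustment over the 100 steps called Myc higher than IgG at 4 of them (4%), centred at −50, 50, 150 and 250 bases. The largest difference was a log2 of 1.75 at 150 bases (SE 0.32, adjusted p = 1.5e-05 by limma-trend), and no step was lower in Myc. At an unadjusted p below 0.05 there were 6 steps, from −150 to 350 bases, all higher in Myc. The steps come from the same 4 libraries and are not independent, and limma pools their spread, so these p-values are smaller than 4 libraries alone would give. The call was lost (0 steps) without IgG replicate 1, without IgG replicate 2, with title suffix as a replicate block, and with IgG wt added or as the only control.

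**Figure D2:**
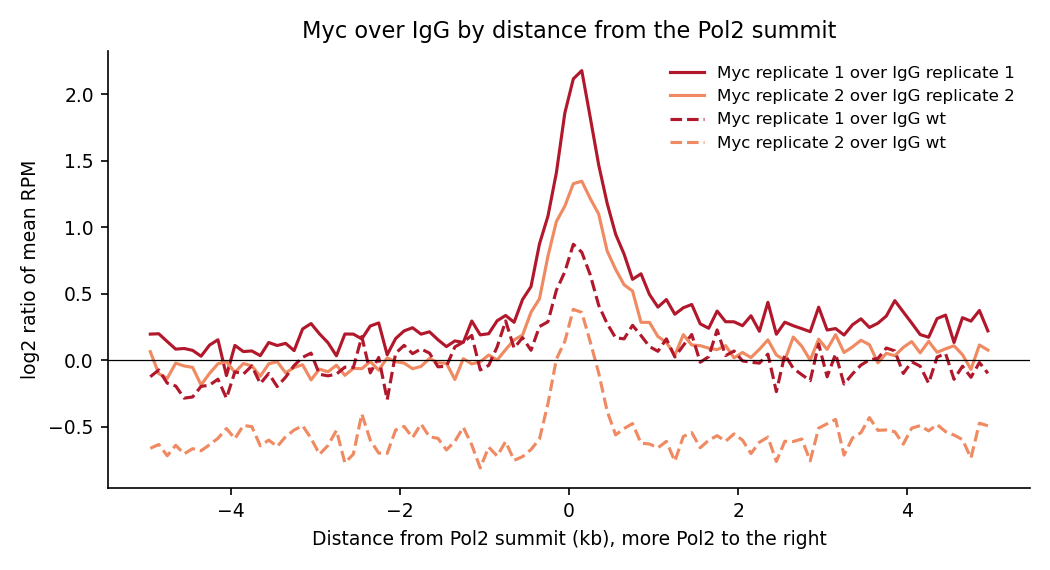
The log2 ratio of mean RPM, Myc over IgG (vertical axis), against distance from the Pol2 summit in kb (horizontal axis). Solid lines are the title pairs and dashed lines the same Myc libraries over IgG wt, and all 4 peak at the steps centred 50 or 150 bases to the positive side, at 2.18, 1.35, 0.87 and 0.38.

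The shape of the Myc peak was close to that of Pol2. Its width at 50% of its height above the flank was 531 bases in Myc replicate 1 and 503 bases in replicate 2 (517 ± 20, SD, n = 2). The Pol2 peak was 460 bases wide, and the IgG peaks were 1396, 537 and 736 bases wide in IgG replicates 1 and 2 and IgG wt. With the paired IgG subtracted, Myc was 477 and 489 bases wide, against 449 bases for Pol2 less IgG wt. These widths include the 500-base bin that set the centre, so they are not the widths of single sites.

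Myc was displaced from the summit bin's centre to the same side as Pol2 and by a like distance. The centroid within 1 kb, after subtraction of the flank level, lay at 107 and 123 bases on the positive side for Myc replicates 1 and 2 and at 122 bases for Pol2. It lay at 61, 104 and 120 bases for IgG replicates 1 and 2 and IgG wt. The difference between Myc and Pol2 was therefore no larger than the difference between the Myc libraries. Since the direction came from this same Pol2 library, the side was also taken from the B4 Pol2 library with 10058-F4. The same side was chosen at 5997 summits (87.2%), and the centroids were then 109 and 131 bases for Myc and 115 bases for the Pol2 library that set the summits. They were 59.8, 119.2 and 129.6 bases for IgG replicates 1 and 2 and IgG wt. Those of IgG replicate 2 and IgG wt lay between the Myc values, so the displacement was not particular to Myc.

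The flank of the Myc signal followed the flank of Pol2. From 500 to 2000 bases, Myc replicate 1 had 27227 reads on the positive side and 19547 on the negative side, and Myc replicate 2 had 23961 and 17135. The log2 ratios of positive over negative side were 0.478 and 0.484, or 0.481 ± 0.004 (SD, n = 2). IgG replicates 1 and 2 had 0.221 and 0.238. Pol2 had 1.09, as the rule set it, and the Pol2 library with 10058-F4 had 1.15 at the same summits and sides.

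The Myc ratios exceeded those of the paired IgG libraries by 0.257 and 0.246, or 0.252 ± 0.008 (SD, n = 2 pairs), and the exact permutation test over these 4 libraries gave p = 0.333, the smallest possible. IgG wt, however, had a ratio of 0.436, and the Myc libraries exceeded it by only 0.042 and 0.047. Set against IgG wt, the mean difference in asymmetry was 0.0446. Both Myc libraries were thus tilted toward the Pol2-rich side more than IgG replicates 1 and 2 and by only a little more than IgG wt.

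The tilt was strongest near the summit. From 0 to 500 bases the log2 ratio was 0.63 and 0.73 in Myc replicates 1 and 2, against 0.07, 0.39 and 0.41 in IgG replicates 1 and 2 and IgG wt. From 3000 to 5000 bases it was 0.41 and 0.38 in Myc, and 0.24, 0.23 and 0.32 in IgG. Counted by summit from 500 to 2000 bases, 62.0% of the 5961 summits with unequal sides had more Myc replicate 1 reads on the positive side. The share was 60.7% of 5838 for Myc replicate 2, and 56.7, 56.8 and 59.3% in IgG replicates 1 and 2 and IgG wt.

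Summits with a more lopsided Pol2 profile had a more lopsided Myc profile. Summits were placed in quartiles of the log2 ratio of Pol2 reads between the sides. From the most even to the most uneven quartile, the Myc log2 ratio at 500 to 2000 bases went through 0.144, 0.392, 0.535 and 0.869 in replicate 1. In replicate 2 it went through 0.103, 0.363, 0.516 and 0.930. The IgG libraries rose in the same order, ending at 0.472 and 0.526 in IgG replicates 1 and 2 and at 0.878 in IgG wt. In every quartile both Myc libraries were above IgG replicates 1 and 2. IgG wt went through 0.103, 0.232, 0.503 and 0.878. It was level with Myc replicate 2 in the most even quartile and below both Myc libraries in the next, where the gap was clear. In the third quartile it was only a little below both, and in the most uneven it lay between the Myc libraries. The Myc level in the summit bin changed little over these quartiles, from 2.21 to 2.38 RPM in replicate 1 and from 1.56 to 1.68 RPM in replicate 2.

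**Figure D3:**
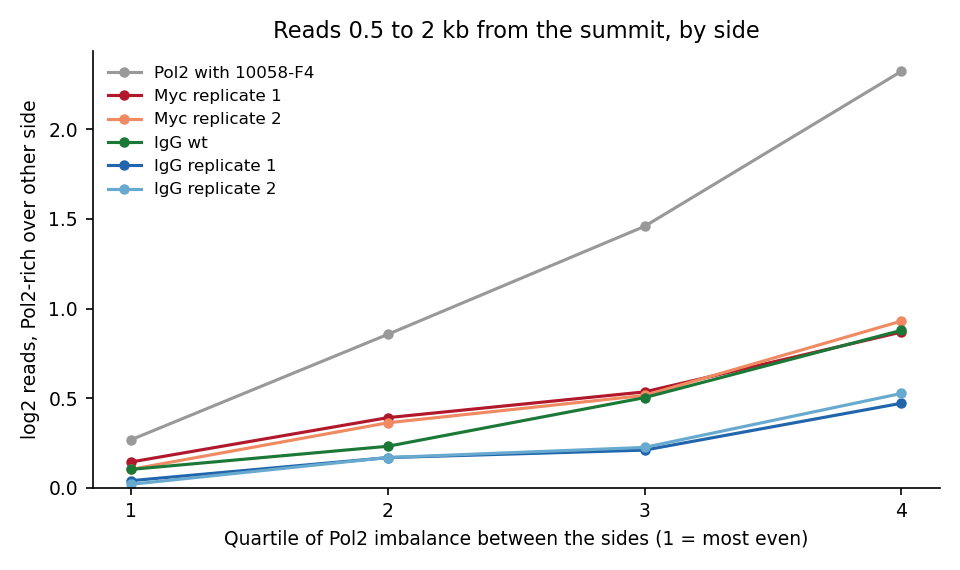
The log2 ratio of reads on the Pol2-rich side over the other side, 500 to 2000 bases from the summit (vertical axis), in quartiles of Pol2 imbalance with 1 the most even (horizontal axis), 1 line per library. Every library rises, from 0.268 to 2.32 for Pol2 with 10058-F4, and in quartile 4 IgG wt at 0.878 lies between Myc at 0.869 and 0.930.

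At single summits, the highest Myc bin was most often the Pol2 summit bin. Among summits with at least 10 reads in the 9 bins within 2 kb, Myc was highest in the summit bin at 53.2% of 5206 summits in replicate 1 and 62.9% of 5025 in replicate 2 (58.0 ± 6.8%, SD, n = 2). Ties gave each tied bin an equal part. The share was 20.5% of 4973, 38.2% of 5952 and 31.1% of 1530 summits in IgG replicates 1 and 2 and IgG wt. An even spread would give 11.1%. The lower Myc share and the highest IgG share were 14.96 percentage points apart, more than the 9.67 points between the Myc libraries.

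Where the highest Myc bin was next to the summit bin, it was more often on the positive side. The adjacent positive bin was highest at 17.96 and 17.6% of summits in Myc replicates 1 and 2, and the adjacent negative bin at 7.91 and 5.56%. The IgG libraries leaned the same way, at 16.7 against 14.4% in IgG replicate 1, 16.3 against 9.48% in IgG replicate 2 and 20.3 against 12.0% in IgG wt. Bins 1500 to 2000 bases away were highest at 11.3 and 7.84% in Myc and at 28.96, 21.9 and 21.9% in IgG. Thinning Myc and IgG replicates 1 and 2 to the shallowest of them gave a mean Myc share of 57.6% in the summit bin. The IgG share after thinning is not given and IgG wt was left out, so Myc and IgG are not compared at equal depth.

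**Figure D4:**
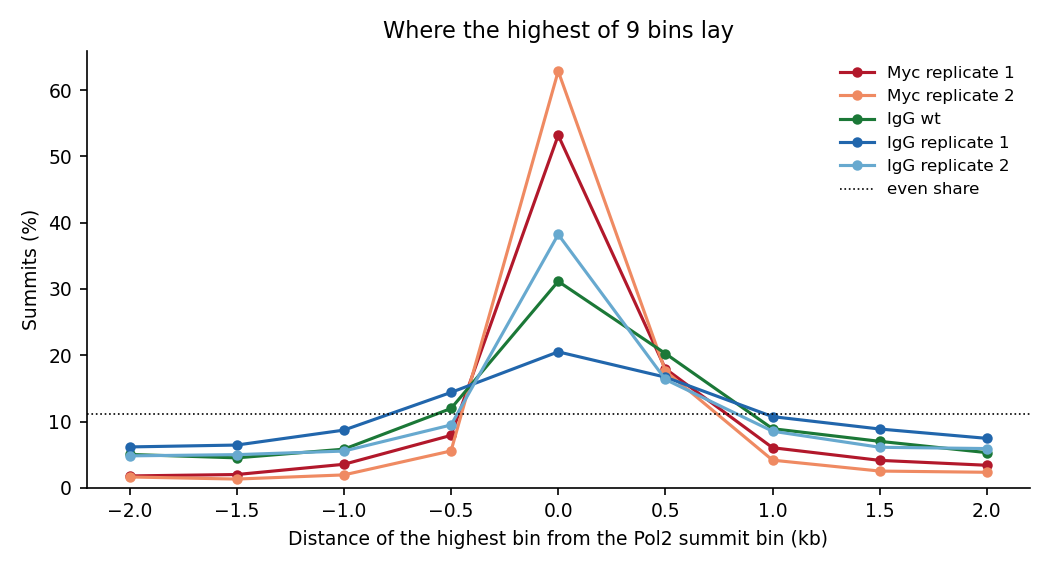
Share of summits in % (vertical axis) whose highest of 9 bins lay at each distance in kb from the Pol2 summit bin (horizontal axis, Pol2-rich side to the right), 1 line per library. Myc replicates 1 and 2 stand at 53.2 and 62.9% at 0, above the IgG libraries at 20.5 to 38.2%, and the dotted line is the even share of 11.1%.

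Most summits held few Myc reads. The median was 4 reads in each Myc library, against 2 and 3 in IgG replicates 1 and 2 and 1 in IgG wt. The summit bin had no read from either Myc library at 61 summits (0.887%). Scaled to library size, Myc was above the paired IgG at 80.1% of summits in pair 1 and 77.5% in pair 2, and at 4382 summits (63.7%) in both. In bins 4500 bases away both pairs were higher at 11.6% of summits on the negative side and 14.1% on the positive side. Both pairs were lower there at 15.9 and 16.1%, against 5.06% in the summit bin. Of those distant bins 34.7 and 31.3% had no read from either Myc library. Such bins cannot be higher in Myc, so low counts hold the distant shares down. Both Myc libraries were above all 3 IgG libraries at 2450 summits (35.6%), against 7.27 and 8.28% in those distant bins.

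By rank, summits were ordered more alike by the Myc libraries than by the IgG replicates. Across the 6880 summits their reads had a Spearman correlation of 0.348, against 0.0528 for the 2 IgG replicates and 0.0806 and 0.109 for each Myc library with its paired IgG. With Pol2 reads it was 0.289 and 0.287 for the Myc libraries and 0.0467 and 0.112 for IgG replicates 1 and 2. With IgG wt the rank correlation was 0.0675 and 0.0854 for the Myc libraries. Pearson's correlation ran the other way, at 0.553 between the Myc libraries and 0.744 between the IgG replicates. Without the 69 summits (1%) with the most IgG reads within 5 kb it was 0.482 and 0.0536, so that order rested on those summits. These are descriptions across summits, which share their libraries and rest on a median of 4 Myc reads. The 688 summits highest in the other pair held 24.0% of the excess of pair 1 and 23.5% of that of pair 2. At so few reads per summit this ranking is noisy, so these shares cannot tell how widely the excess was spread.

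Tested one by one, few summits passed. limma with voom weights on 2971 bins of the genome with at least 20 reads over the 4 libraries called 2 bins (0.0673%) higher in Myc and 0 lower, with Benjamini-Hochberg adjustment over all bins. Both were Pol2 summits, of 1501 summits tested. A summit with high Myc passes the read minimum more easily, so the share of called summits is not compared with that of other bins. With limma-trend 339 of the 1501 summits were called, where 14.4% of all bins were. With IgG wt added 313 of 1993 summits tested were called, where 9.96% of all bins were. With title suffix as a replicate block, 574 of the 1501 summits were called, where 26.9% of bins were. At an unadjusted p below 0.05 the voom fit had 505 of the 1501 summits, all higher in Myc, where 23.5% of all bins were higher. The read minimum lets summits in partly through their Myc reads, so neither this count nor its direction is read further.

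The bins called by voom were chr5:144163001-144163500 and chr9:20628501-20629000. At chr5:144163001-144163500 there were 34 and 25 Myc reads, 6 and 3 IgG reads, and 2 IgG wt reads, with 38 Pol2 reads. Its log2 difference was 3.79 (SE 0.76, limma adjusted p = 0.026). At chr9:20628501-20629000 there were 49 and 30 Myc reads, 5 and 5 IgG reads, and 5 IgG wt reads, with 58 Pol2 reads. Its log2 difference was 3.64 (SE 0.74, limma adjusted p = 0.026). Both bins were chosen by this call, so the gap between their groups is no separate support.

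Read from the side of Myc, the strongest Myc bins lay at Pol2 summits more often than the strongest IgG bins. Of the 1000 bins with the most reads in Myc replicate 1, 57.0% were Pol2 summits and 79.4% lay within 2000 bases of one. For Myc replicate 2 the shares were 55% and 74.5%. For IgG replicates 1 and 2 and IgG wt, 6.30, 14.1 and 11.3% of the 1000 strongest bins were summits. Summits make up 0.140% of all bins. Of the strongest Myc bins, 28.3 and 33.1% had under 20 Pol2 reads.

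Myc over IgG was higher at summits with 30 to 98 Pol2 reads than at those with 20 to 29. At the 3474 summits with 20 to 29 Pol2 reads, Myc was 1.77 and 1.29 RPM in replicates 1 and 2 and IgG was 0.593 and 0.616 RPM, with IgG wt at 1.25 RPM. At the 637 summits with 50 to 98 reads, Myc was 3.79 and 2.61 RPM and IgG was 0.809 and 1.03 RPM, with IgG wt at 1.83 RPM. The log2 ratio was 1.58 and 1.07 in the lower class, 2.07 and 1.39 at the 2741 summits with 30 to 49 reads, and 2.23 and 1.34 in the higher class. Pair 1 rose at each step, and pair 2 was slightly lower in the last of these classes than in the one before. Over IgG wt the ratio was 0.50 and 0.05, then 0.93 and 0.38, then 1.05 and 0.51 for Myc replicates 1 and 2. The rise from the class of 20 to 29 reads to that of 50 to 98 was 0.65 in pair 1 and 0.27 in pair 2, so the pairs shared the direction, and their sizes differed.

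At the 28 summits with 100 or more Pol2 reads the ratio was 0.85 and 0.30, with Myc at 7.24 and 7.75 RPM and IgG at 4.01 and 6.28 RPM. IgG wt was at 16.8 RPM there, so both Myc libraries were below it, with log2 ratios of −1.21 and −1.11. The 69 summits (1%) with the most IgG reads within 5 kb held 7.34 and 10.05% of the summit reads of IgG replicates 1 and 2, and 2.49 and 5.09% of those of Myc. Without them, 18 summits remained in this class, and the ratio was 2.62 and 1.41, or 1.61 and 0.94 over IgG wt. The class of 50 to 98 reads then had 2.49 and 1.60. Without those summits the highest class was the highest of all in pair 1, while in pair 2 it stayed below the class before it. Those summits were picked by reads of IgG replicates 1 and 2, which the paired ratio divides by. Leaving them out therefore raises that ratio by itself, and the change is not read as a result about this class.

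**Figure D5:**
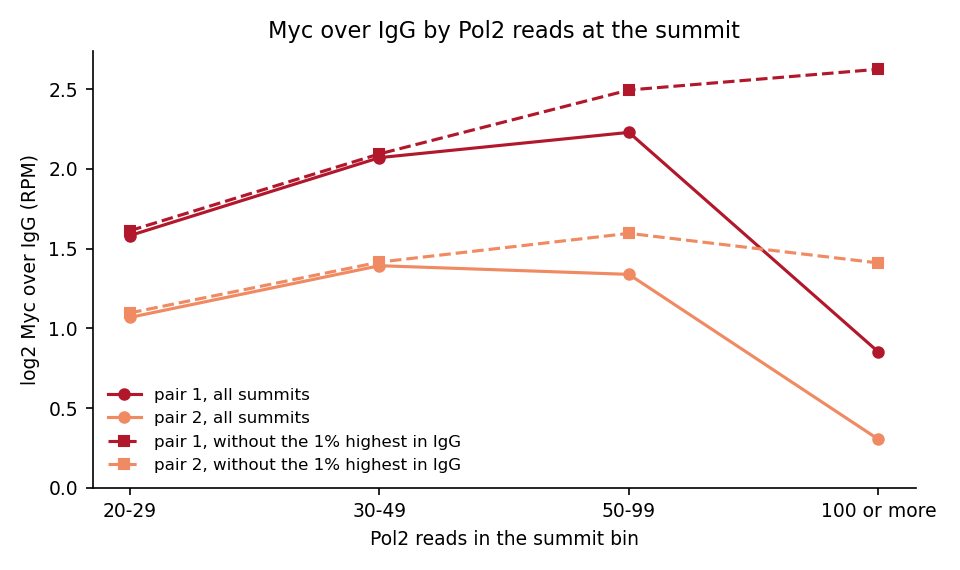
The log2 ratio of Myc over the paired IgG in RPM (vertical axis) in classes of Pol2 reads in the summit bin (horizontal axis). Circles and solid lines are all summits, squares and dashed lines leave out the 1% of summits highest in IgG, and the class of 100 or more reads moves from 0.85 and 0.30 to 2.62 and 1.41. The summits left out were picked by the IgG reads that the ratio divides by, which by itself raises the dashed lines. IgG wt is not drawn.

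Values were alike just inside and just outside the limit of 20 Pol2 reads. At the 849 summits with 20 or 21 Pol2 reads Myc was 1.54 and 1.11 RPM, and at the 961 local maxima with 18 or 19 reads it was 1.45 and 1.08 RPM. IgG was 0.576 and 0.613 RPM inside and 0.591 and 0.616 RPM outside, and IgG wt was 1.15 RPM inside and 1.14 RPM outside.

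The summits with the most Pol2 reads were mostly high in every library. At chr17:39452001-39452500, with 917 Pol2 reads, there were 133 and 196 Myc reads and 197 and 329 IgG reads, with 237 IgG wt reads. At chr17:39456501-39457000, with 643 Pol2 reads, there were 63 and 151 Myc reads and 58 and 223 IgG reads. At chr11:108827501-108828000, with 219 Pol2 reads, there were 30 and 53 against 35 and 90. The summit chr3:5843501-5844000, with 176 Pol2 reads, had 9 and 46 against 12 and 64. In these 4 bins the mean Myc level was 9.52 to 62.7 RPM and exceeded the mean of IgG replicates 1 and 2 by 1.29 to 8.68 RPM. Pair 1 was higher in Myc in all 4 bins, but pair 2 was not. Myc replicate 2 was below IgG replicate 2 at chr17:39452001-39452500 (63.2 against 64.3 RPM) and at chr11:108827501-108828000 (17.1 against 17.6 RPM). IgG wt was far above the Myc and the other IgG libraries. It had 185 and 142 RPM in the bins on chromosome 17, 41.5 RPM in that on chromosome 11 and 33.6 RPM in that on chromosome 3. Against that control Myc was lower in all 4 bins. The exception was chr13:43796001-43796500, where 209 Pol2 reads came with 3 and 11 Myc reads, 0 and 7 IgG reads and 1 IgG wt read.

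The summits with the most Myc had Pol2 counts above the median of 29, but none was among the 5 with the most Pol2 reads. Those with 78 and 58 Pol2 reads were above the 90th percentile of 49. At chr5:142620001-142620500 each Myc library had 47 reads and IgG had 1 and 2, with 78 Pol2 reads. At chr11:102005501-102006000 there were 62 and 23 Myc reads against 3 and 0, with 35 Pol2 reads. At chr11:59862501-59863000 there were 51 and 28 against 2 and 6, with 37 Pol2 reads. Here the Myc libraries stood far above every control, since IgG wt had 1, 3 and 3 reads. The bin chr9:20628501-20629000 given above came next, and then chr4:154836001-154836500, with 45 and 27 Myc reads against 0 and 2 and with 47 Pol2 reads. These 5 were chosen by their Myc excess, so their size is a description.

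At some strong Pol2 summits the mean Myc level was below that of IgG or barely above it, and at the first 2 given here Myc reads were at or near 0. At chr10:80335501-80336000, with 120 Pol2 reads, neither Myc library had a read, and IgG had 0 and 3. At chr15:61816501-61817000, with 113 Pol2 reads, each Myc library had 1 read and IgG had 0 and 5. At chr5:143171501-143172000, with 102 Pol2 reads, there were 1 and 7 Myc reads and 5 and 6 IgG reads. The deeper Pol2 library with 10058-F4 had 131, 224 and 171 reads at these 3 bins, or 25.5, 43.7 and 33.3 RPM. These values were above its mean of 18.3 RPM per summit bin. They were below the 50.5, 47.5 and 42.9 RPM of the Pol2 library that set the summits. At chr9:123777501-123778000, with 111 Pol2 reads, Myc had 11 and 24 reads and IgG had 13 and 51, with 12 for IgG wt. This bin was high in Myc, at 5.14 and 7.74 RPM, and low only relative to IgG. IgG wt had 1, 4 and 3 reads at the other 3 bins. The bin chr17:39452001-39452500 given above was the other of the 5 lowest in Myc over IgG among the 28 summits with at least 100 Pol2 reads.

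In a minority of windows Myc was highest away from the summit bin. Of 4051 summits with at least 10 reads of each Myc library in the 9 bins, 1904 had a highest Myc bin at least 4-fold over IgG. That bin was the summit bin at 1262 of these (66.3%), an adjacent bin at 471 and a bin 1000 to 2000 bases away at 171. Adjacent bins were on the positive side at 352 and on the negative side at 119. Of the 171 more distant bins, 122 were on the positive side and 49 on the negative side. In both distance classes more of these maxima were on the Pol2-rich side. Highest bins of the IgG libraries leaned the same way in all windows with at least 10 reads, with 43.8, 36.9 and 41.5% on the positive side and 35.7, 24.9 and 27.4% on the negative side in IgG replicates 1 and 2 and IgG wt. Whether the Myc lean exceeds theirs was not tested.

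The most distant of these Myc maxima lay 2000 bases from the summit bin, the limit of the search. The highest was near chr4:46471501-46472000, whose own bin had 12 and 7 Myc reads. The bin 2000 bases to its positive side had 25 and 19 Myc reads, 1 and 4 IgG reads, and 39 Pol2 reads, so Pol2 was high there as well. Near chr11:88369001-88369500 the distant bin had 13 and 10 Myc reads, 2 and 1 IgG reads, and 25 Pol2 reads against 28 in the summit bin. Near chr19:5729501-5730000, the only one of the 5 on the negative side, it had 19 and 7 Myc reads, 4 and 4 IgG reads, and 21 Pol2 reads. Near chr1:88359001-88359500 it had 18 and 2 Myc reads and 59 Pol2 reads, and near chr8:123373001-123373500 it had 13 and 3 Myc reads and 30 Pol2 reads. In all 5 cases the distant bin passed the limit of 20 Pol2 reads itself, and in these last 2 the Myc reads came mainly from replicate 1.

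Libraries from other states, 1 per state and so without a test, were read at the same summits. Myc from untreated B cells (B0) had 1.32 RPM in the summit bin over 1.07 RPM in its IgG, a log2 ratio of 0.30. B4 Myc with 10058-F4 had 1.26 RPM over 1.02 and 0.858 RPM in its 2 IgG libraries, which gives 0.31 and 0.55. Myc from T cells given 7.5 µg/ml of concanavalin A for 4 h (T4) had 1.44 RPM over 0.767 RPM, a log2 ratio of 0.91. Each of these ratios was below the 1.86 and 1.22 of the B4 pairs and above the 0.21 of B4 Myc replicate 2 over IgG wt. The summits were set by the B4 Pol2 library and not by Pol2 of these other states. B4 IgG replicates 1 and 2, at 0.636 and 0.702 RPM, were also the lowest of all IgG libraries, which raises the B4 ratios. These values therefore do not rank the states. Relative to their own flanks, the summit bin held 3.58, 3.97 and 4.30 times as many reads in B0, B4 with 10058-F4 and T4 Myc. The 2 B4 Myc libraries stood higher, at 6.33 and 6.20, and the IgG libraries of these other states were at 2.57 to 3.16. The share of summits whose highest bin was the summit bin was 59.0% of 6873 in B0 Myc and 44.2% of 6228 in its IgG. The B0 Myc share lay between the B4 Myc values of 53.2 and 62.9%. It was 51.6% of 5244 in B4 Myc with 10058-F4, against 30.4% of 2432 and 42.2% of 6399 in its IgG libraries. In T4 Myc it was 50.7% of 6663, against 28.7% of 1063. B0 Myc was the deepest library, with 7433203 reads, and these shares are not compared at equal depth.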

How the data were processed

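Each deposited file lists aligned reads, each with its position, length in bases and strand, without counts or peaks. The submitters' processing notes name build mm8 and the tools CASAVA 1.0 and Bowtie 0.12.7, and their settings are not given in the sources used here. Coordinates are those of the files and may be off by 1 base.

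Reads with the same 5′ end and strand were counted once, which removed 5.26% of reads in Myc replicate 1 and at most 0.0796% in the other 13 libraries used. Reads were moved by 46 to 86 bases toward the fragment centre, which is the strand cross-correlation offset divided equally between strands. Windows were counted in 50-base units. Replicate libraries shared at most 0.224% of read positions, and a chi-square test over windows of 1 Mb gave 18.5 per degree of freedom for Myc and 12.9 for IgG, so they were kept apart. The T14 libraries were not used here, since their titles and file names give opposite antibodies.

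Levels were RPM on chromosomes 1 to 19. Steps were tested with limma 3.58.1 (limma-trend, 0.001 RPM added before log2) and bins with limma and voom weights, with adjusted p below 0.05 as the threshold. Single values had an exact permutation test over libraries. On simulated counts for 2971 bins the voom fit found 79 of 100 bins raised 4-fold and all 100 raised 8-fold. It also called 7 unchanged bins. The simulated libraries lacked the differences in profile of real ones. The profile measures were tested on simulated data too. Named bins were the 5 summits with the most Pol2, the most Myc over IgG in RPM, the most distant Myc maximum, and the least Myc over IgG at 100 or more Pol2 reads. The view from the 1000 strongest bins was added after seeing the data. The members and these rules were chosen with earlier results of these data known. Python 3.11.15, numpy 2.4.6, pandas 2.3.3, scipy 1.17.1, matplotlib 3.10.9 and R 4.3.3 were used.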

Additional observations from a re-analysis of the deposited data

Results flagged for a closer look

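Libraries outside the main comparison also exceeded controls at the Pol2 summits. IgG wt had 1.41 RPM in the summit bin, above IgG replicates 1 and 2 at 0.636 and 0.702 RPM. B0 Myc had 1.32 RPM against 1.07 RPM in its IgG. B4 Myc with 10058-F4 had 1.26 RPM against 1.02 and 0.858 RPM, and T4 Myc had 1.44 RPM against 0.767 RPM. These states have 1 Myc library each, so no test was made.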

How the results depend on the processing

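The log2 Myc excess of 1.54 in the summit bin kept its direction in all 16 alternatives, from 0.46 with IgG wt alone (chosen after seeing the data) to 1.79, and from 1.29 to 1.79 with a library left out. The asymmetry difference of 0.252 kept its direction in 18, from 0.0446 with IgG wt alone to 0.282, and from 0.243 to 0.260 with a library left out. Neither exact test could pass 0.05 in any of these designs. The share of summits with Myc highest in the summit bin ranged from 51.7% to 64.0%, within 1 SD, and the rise with Pol2 class from 0.311 to 0.690. That rise has no value with at least 40 Pol2 reads, since the lowest class is then empty.

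The 4 steps called became 0 with the replicate block, where 15 had an unadjusted p below 0.05, and 0 with IgG wt added or alone. With 1 library left out they ranged from 0 to 6. The 2 summits called, of 1501 tested, became 574 with the replicate block and 339 with limma-trend, of the same 1501. They became 313 of 1993 with IgG wt added and 29 of 5194 with at least 10 reads summed. They became 29 of 1620 with the grid moved by 250 bases. They became 1 with at least 40 Pol2 reads, and 0 with at least 40 reads summed, background scaling, duplicates kept, no shift or IgG wt alone. With 1 library left out they ranged from 0 to 147, the latter without Myc replicate 2. Only 621 summits were tested with at least 40 Pol2 reads and 464 without Myc replicate 2, so these counts do not share a total. Same-suffix libraries had a correlation of deviations of 0.199 over 2971 bins, and with only 2 such pairs the block rests on titles alone. The cause of these changes was not tested.

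The Myc width of 517 bases was 574 with no shift, 489 with sides set within 2 kb and 496 with sides set by the other Pol2 library. The B0 log2 ratio of 0.301 was 0.336 with background scaling, 0.212 with at least 40 Pol2 reads, 0.353 with Pol2 at least 4-fold over IgG wt and 0.344 without the 1% of summits highest in IgG. At a median of 4 Myc reads per summit, depth limits statements about single summits.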
